A study of Mus musculus with 6 samples.

Results

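The genes Postn, Cilp, Thbs4, Comp, Meox1, Spp1, Ccn2, Fn1, Lox and Tnc were followed in single nuclei of the mouse left ventricle. They were chosen by symbol as genes of activated cardiac fibroblasts, and all 10 were among the 33696 genes of the count tables. The study asked how empagliflozin, an inhibitor of sodium-glucose cotransporter 2, affects a heart with the R403Q mutation of cardiac myosin heavy chain. The mutation is a model of hypertrophic cardiomyopathy. There were 6 libraries in 3 groups of male mice aged 12 weeks, with n = 2 libraries per group. WT-CD were wild-type littermates on control diet, R403Q-CD were mice of genotype Myh6+/R404Q on the same diet, and R403Q-EMPA were mice of that genotype on control diet holding empagliflozin at 0.15 mg per g of diet, about 15 mg/kg. Mice were put on the diets when 9 to 10 weeks old. The treatment text also names a diet length that these ages do not allow, so no length is given here. Both R403Q groups carried the mutation, and none of these 6 libraries is from a wild-type mouse given the drug, so the drug in wild-type hearts was not analysed here. Nuclei came from 50 mg of frozen tissue, and no label ties a library to an animal, so p-values measure the spread between libraries, which may be technical.

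Matricellular proteins are secreted into the matrix and act on cells through integrins and growth factors rather than as load-bearing fibres. When a resident cardiac fibroblast becomes activated after injury or overload, it takes up secretion of periostin, thrombospondins and tenascin together with fibronectin and the enzymes that crosslink collagen. Transforming growth factor beta is a classical inducer of this state, and MEOX1 is a homeobox transcription factor linked to it in the stressed heart. Of the 10, Meox1 is the nuclear regulator, Lox is the crosslinking enzyme, Fn1 is the fibril-forming glycoprotein, and the others encode secreted matrix-associated proteins.

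The sequence before the transcription start is shown for 4 members that were among the most changed in R403Q-EMPA fibroblast-like nuclei, so that their upstream regions can be compared. RefSeq promoter windows on GRCm38.p6 held 5 of the 10 members (Postn, Cilp, Thbs4, Spp1 and Tnc), and the window whose start lay within 10 bases of the most GENCODE M21 transcript starts was taken. Each line gives the 250 bases before the start, 5′ to 3′ on the strand of the gene, with matches to the searched motifs in capitals. They lie at chr3:54360857-54361106 on the plus strand (Postn), chr9:65264930-65265179 on the plus strand (Cilp), chr13:92794819-92795068 on the minus strand (Thbs4) and chr5:104434861-104435110 on the plus strand (Spp1).
Postn: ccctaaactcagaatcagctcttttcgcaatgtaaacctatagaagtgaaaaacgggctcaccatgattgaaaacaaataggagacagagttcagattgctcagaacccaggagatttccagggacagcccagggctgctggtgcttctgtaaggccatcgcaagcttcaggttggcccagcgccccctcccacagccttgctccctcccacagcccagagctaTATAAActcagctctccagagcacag
Cilp: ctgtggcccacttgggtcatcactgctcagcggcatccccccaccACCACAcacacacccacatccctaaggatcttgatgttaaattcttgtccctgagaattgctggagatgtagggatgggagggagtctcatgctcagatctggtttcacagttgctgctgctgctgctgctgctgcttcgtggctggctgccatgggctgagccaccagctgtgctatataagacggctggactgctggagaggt
Thbs4: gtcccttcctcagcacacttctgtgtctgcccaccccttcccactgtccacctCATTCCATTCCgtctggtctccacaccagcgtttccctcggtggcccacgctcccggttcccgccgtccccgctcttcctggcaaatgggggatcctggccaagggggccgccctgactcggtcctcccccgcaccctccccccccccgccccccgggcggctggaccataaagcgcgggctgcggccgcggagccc
Spp1: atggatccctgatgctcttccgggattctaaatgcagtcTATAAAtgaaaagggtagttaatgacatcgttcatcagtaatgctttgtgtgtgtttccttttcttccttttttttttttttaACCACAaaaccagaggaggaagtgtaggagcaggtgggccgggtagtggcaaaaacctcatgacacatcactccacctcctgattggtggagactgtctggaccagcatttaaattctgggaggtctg
The motifs searched on both strands were CATTCC (the TEAD site), TGANTCA (AP-1), TGTGGT (RUNX), GTCTAGAC (SMAD), TATAAA (the TATA box) and the CArG box. TATAAA lay 26 to 21 bases before the start in Postn, 211 to 206 in Spp1 and 126 to 121 in Tnc, and this motif was in 12.4% of the 32851 windows of the same length. Thbs4 held CATTCC in overlapping copies from 197 to 187 bases before the start, a motif present in 12.6% of windows. TGTGGT was read on the opposite strand in Cilp (205 to 200 bases before the start) and Spp1 (128 to 123), against 14.0% of windows. No window of the 5 members held TGANTCA, GTCTAGAC or a CArG box, which were in 6.75%, 0.167% and 1.47% of all windows. These matches describe letters and do not show binding or a working TATA box. Other spellings were not searched, such as the tatataag near the start in Cilp. Lower case therefore does not show that a site is absent.

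After filters on depth, mitochondrial share and predicted doublets, 46005 nuclei of 69249 barcodes were kept, 6409 to 9514 per library, with median depths of 2663 to 4065 UMIs. A UMI is a counted RNA molecule. The nuclei formed 19 clusters, made without the 10 genes, which were assigned by marker genes to classes called "-like"; 14145 nuclei in 3 clusters were fibroblast-like. All 10 fibroblast markers, such as Pdgfra, Dcn and Tcf21, had UMIs in the fibroblast-like nuclei of every library, where they summed to 14466 to 19625 CPM. CPM relate the UMIs of a gene to all UMIs of that class in that library, a share of the RNA of these nuclei, so fewer expressing nuclei and less RNA per nucleus cannot be told apart by CPM alone. Of the distinct barcodes, 535 were shared by 2 libraries and 3 by 3 libraries. The libraries of a group were further apart than counting noise allows (chi-square over its degrees of freedom 7.83 to 50.5). Myh6, which carries the mutation, stood at 2340 to 4095 CPM over all nuclei, but counts do not show the allele. Slc5a2, the drug's target, had 2 to 6 UMIs per library.

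In fibroblast-like nuclei, 9 of the 10 genes were at their highest in R403Q-EMPA replicate 1, and Comp was at its highest in R403Q-EMPA replicate 2. The R403Q-EMPA libraries were far apart for most genes, and alike for Comp and Lox. For Comp, 1 nucleus held 36 of the 95 UMIs of replicate 2. The R403Q-CD and WT-CD libraries overlapped for 8 of the 10. Over all genes tested, 15.8% were higher and 13.6% lower in R403Q-CD than in WT-CD without overlap. The libraries of R403Q-EMPA are therefore given apart throughout.

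Periostin (Postn) is the classical secreted marker of activated fibroblasts and binds integrins. It stood at 28.2 and 19.97 CPM in WT-CD replicates 1 and 2, 26.0 and 57.5 CPM in R403Q-CD, and 462 and 68.5 CPM in R403Q-EMPA. R403Q-EMPA replicate 1 lay well above every other library, and replicate 2 lay just above R403Q-CD replicate 2. Cilp encodes a cartilage intermediate layer protein that is secreted by fibroblasts of the pressure-loaded heart. Its level was 9.67 and 7.20 CPM in WT-CD, 7.22 and 5.55 CPM in R403Q-CD, and 89.7 and 21.5 CPM in R403Q-EMPA. Both R403Q-EMPA libraries were above the other 4.

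Thbs4 encodes thrombospondin-4, a pentameric matrix glycoprotein, and Comp encodes its relative thrombospondin-5, which binds collagen. Thbs4 was at 0.717 and 0.360 CPM in WT-CD, 0.754 and 2.99 CPM in R403Q-CD, and 82.2 and 17.5 CPM in R403Q-EMPA, that is 8, 4, 7, 28, 594 and 88 UMIs in the same order. Comp was at 2.78 and 0.900 CPM in WT-CD, 0.323 and 1.49 CPM in R403Q-CD, and 17.9 and 18.9 CPM in R403Q-EMPA. For both genes the R403Q-EMPA libraries lay above the other 4. The Comp level of R403Q-EMPA replicate 2 rested on few nuclei, since 1 nucleus held 36 of its 95 UMIs and 17 nuclei held any. Without the UMIs of that nucleus the library stood at 11.8 CPM, and replicate 1 without its own top nucleus stood at 16.1 CPM.

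Spp1 encodes osteopontin, a secreted phosphoprotein made by macrophages and by activated fibroblasts. No UMI of it was seen in the fibroblast-like nuclei of either WT-CD library, whereas those of R403Q-CD held 17 and 4 UMIs and those of R403Q-EMPA 164 and 20. By counting error alone, a count of 0 allows up to 3 UMIs over the pooled WT-CD libraries. Set against these 3 UMIs, Spp1 was 169-fold higher in R403Q-EMPA replicate 1 and 29.6-fold higher in replicate 2. Libraries of a group differed beyond counting error, so these folds are no firm lower bounds. In replicate 2 the 20 UMIs lay in 8 nuclei, with 7 in 1 nucleus. Tnc encodes tenascin-C, a matricellular protein of injury and development. It was at 1.43 and 0.540 CPM in WT-CD, 1.40 and 2.77 CPM in R403Q-CD, and 16.5 and 3.39 CPM in R403Q-EMPA, so replicate 2 of R403Q-EMPA lay little above R403Q-CD replicate 2. In the latter 12 of 26 Tnc UMIs were in 1 nucleus, and without them the level was 1.49 CPM. In R403Q-EMPA replicate 2, 4 of 17 were in 1 nucleus, and without those it stood at 2.59 CPM.

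Meox1 was at 8.78 and 6.39 CPM in WT-CD, 7.75 and 9.17 CPM in R403Q-CD, and 53.2 and 16.1 CPM in R403Q-EMPA. Ccn2, the connective tissue growth factor, was at 113 and 61.9 CPM in WT-CD, 47.4 and 73.3 CPM in R403Q-CD, and 336 and 110 CPM in R403Q-EMPA. Ccn2 of R403Q-EMPA replicate 2 was thus below WT-CD replicate 1. Fn1, fibronectin, was at 53.3 and 29.5 CPM in WT-CD, 25.8 and 35.4 CPM in R403Q-CD, and 143 and 49.4 CPM in R403Q-EMPA, and its R403Q-EMPA and WT-CD libraries overlapped as well. Lox encodes lysyl oxidase, which crosslinks collagen and elastin. It was at 10.9 and 7.56 CPM in WT-CD, 9.48 and 9.92 CPM in R403Q-CD, and 20.9 and 19.3 CPM in R403Q-EMPA, and its R403Q-EMPA libraries were nearly level.

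**Figure D1:**
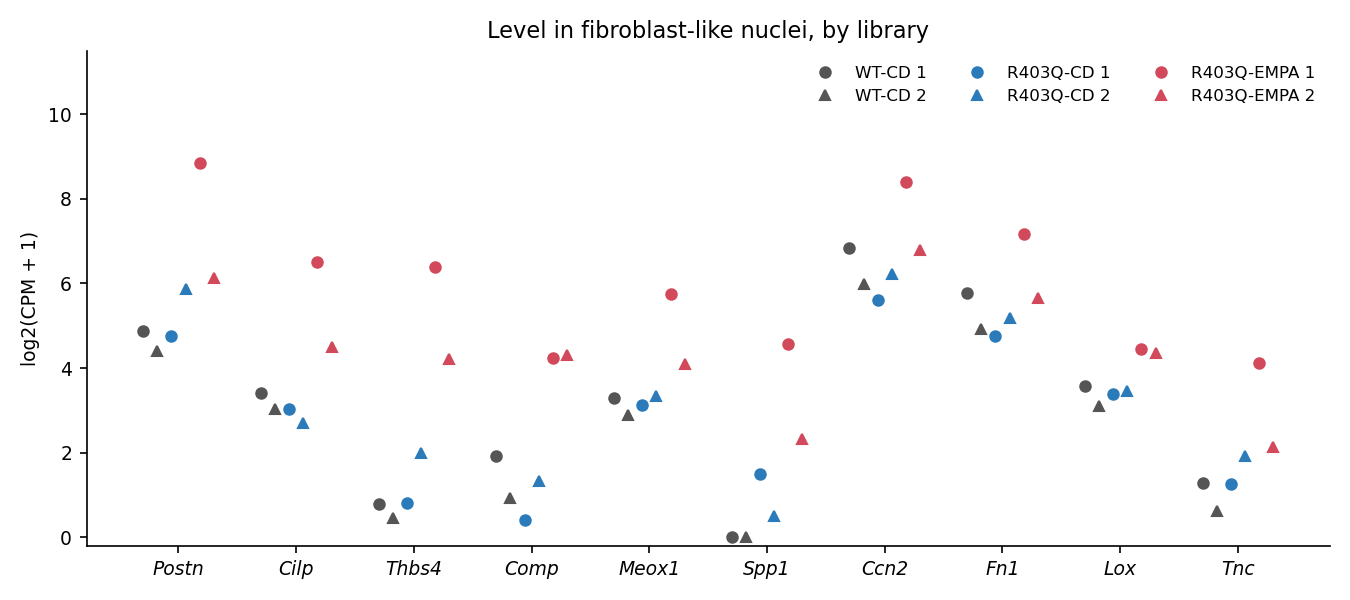
Level of each gene in fibroblast-like nuclei, as log2(CPM + 1) on the vertical axis; each point is 1 library, coloured by group, with circles for replicate 1 and triangles for replicate 2. R403Q-EMPA replicate 1 is far above the rest for Postn (462 CPM) and Thbs4 (82.2 CPM). The R403Q-EMPA libraries are level for Comp (17.9 and 18.9 CPM) and Lox (20.9 and 19.3 CPM). In replicate 2, 1 nucleus holds 36 of the 95 Comp UMIs.

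Whether the mutation on control diet changed these genes was asked by R403Q-CD against WT-CD. Of the 15080 genes tested in fibroblast-like nuclei by edgeR's quasi-likelihood test with Benjamini-Hochberg adjustment, 0 were called at an adjusted p under 0.05 (0%), and so no member was called. At an unadjusted p under 0.05 there were 462 genes (3.06% of those tested) and 1 member, Spp1, while DESeq2 called 9 genes and 0 members. Log2 fold changes ran from -0.99 (SE 0.65) for Comp to 1.77 (SE 1.23) for Thbs4, leaving out Spp1, for which WT-CD had no UMI. The median over the 10 genes was 0.12, beside -0.01 over all genes tested. Both R403Q-CD libraries were above both WT-CD libraries for 2 members, Thbs4 and Spp1, where 15.8% of all genes tested did the same. For Thbs4, 1 nucleus held 4 of the 7 UMIs of R403Q-CD replicate 1 and another held 18 of the 28 of replicate 2. Without these UMIs the levels were 0.323 and 1.07 CPM, the first of them below both WT-CD libraries. The WT-CD libraries without their own top nucleus stood at 0.537 and 0.270 CPM. For Postn the difference was 0.80 (SE 0.72) on the log2 scale. Without 1 library the values ran from 0.13 to 1.26 for Postn, from -2.43 to -0.04 for Comp and from 0.49 to 2.44 for Thbs4.

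Whether the drug changed these genes in mutant hearts was asked by R403Q-EMPA against R403Q-CD. Comp and Thbs4 rose, and all 10 genes had a positive log2 fold change. Of the genes tested, 62 were called (0.411%), and these included 2 of the 10 members. Comp rose by 4.27 on the log2 scale (SE 0.55, 19.3-fold, adjusted p = 0.0296) and Thbs4 by 4.69 (SE 0.75, 25.9-fold, adjusted p = 0.0481). The median over the 10 genes was 2.43, beside 0.00 over all genes tested. All 10 members had an unadjusted p under 0.05, as did 13.4% of all genes. Both R403Q-EMPA libraries were above both R403Q-CD libraries for all 10 members, and 31.1% of all genes tested did the same.

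The other 8 genes did not pass the adjusted threshold in this comparison. Their log2 fold changes were 3.53 (SE 0.85) for Spp1, 3.09 (SE 0.56) for Cilp, 2.62 (SE 0.71) for Postn, 2.24 (SE 0.68) for Tnc, 2.00 (SE 0.45) for Meox1, 1.84 (SE 0.46) for Ccn2, 1.61 (SE 0.43) for Fn1 and 1.01 (SE 0.20) for Lox. Their adjusted p-values lay between 0.0625 for Cilp and 0.217 for Tnc. Lox had the smallest fold change of the 10 and also the smallest SE.

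Comp and Thbs4 lost their calls without any 1 of R403Q-EMPA replicate 1 and the R403Q-CD libraries. Thbs4 also lost its call without the mitochondrial filter (4.60, adjusted p = 0.0978) and with predicted doublets kept (4.90, 0.0547), where Comp kept its own. Without R403Q-EMPA replicate 1, 2 genes and 0 members were called, and Comp stood at 4.33 (adjusted p = 0.139) and Thbs4 at 3.19 (adjusted p = 0.175) by edgeR. Without R403Q-CD replicate 1, 0 genes were called, with Comp at 3.57 (adjusted p = 0.306) and Thbs4 at 4.03 (0.401), and without R403Q-CD replicate 2 there were again 0, with Comp at 5.71 (0.0733) and Thbs4 at 5.97 (0.227). Without R403Q-EMPA replicate 2, 285 genes and 9 of the 10 members were called, Lox being the exception. In each of these fits 1 group is a single library that is assumed to vary like the others, so the 9 calls measure no spread within R403Q-EMPA. The fold change of Postn was 0.69 without replicate 1 and 3.40 without replicate 2, that of Fn1 was 0.67 and 2.16, and that of Tnc was 0.67 and 2.91. Lox (0.97 and 1.04) and Comp (4.33 and 4.21) changed little between the fits without 1 R403Q-EMPA library. The fit without replicate 1 keeps the nucleus that held 36 of the 95 Comp UMIs of replicate 2. DESeq2 called 5 members among 248 genes.

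**Figure D2:**
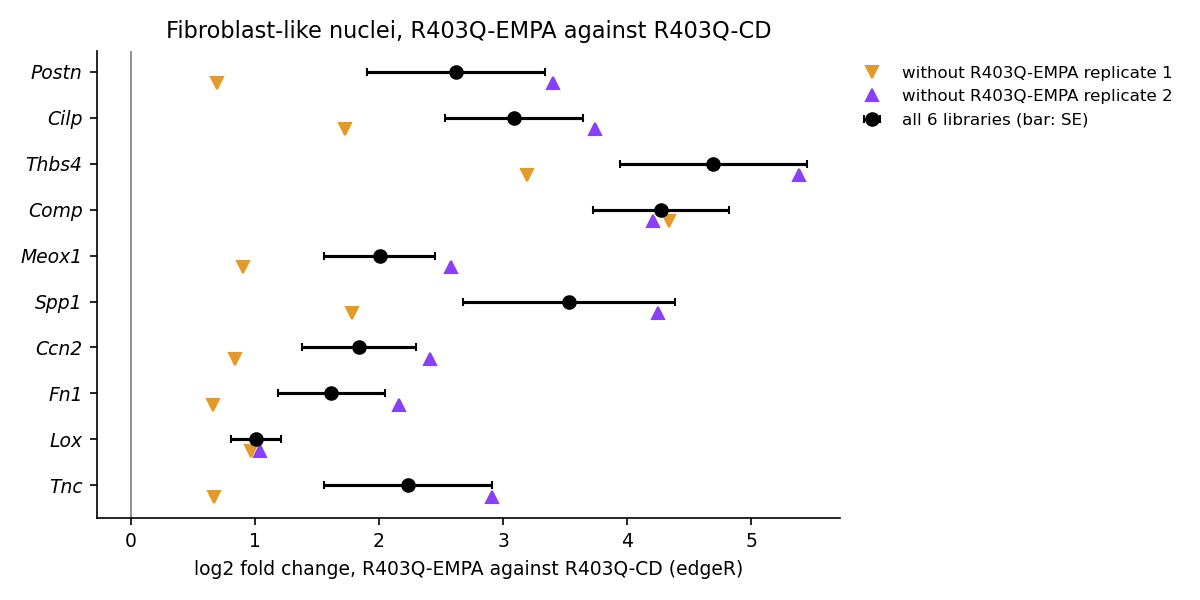
Log2 fold change of each gene in fibroblast-like nuclei, R403Q-EMPA against R403Q-CD, from edgeR; black points with bars are estimates from all 6 libraries with their SE, and triangles are estimates without 1 of the R403Q-EMPA libraries. Postn moves from 2.62 to 0.69 without R403Q-EMPA replicate 1, whereas Comp (4.27 and 4.33) and Lox (1.01 and 0.97) stay in place. In R403Q-EMPA replicate 2, 1 nucleus holds 36 of the 95 Comp UMIs.

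Against WT-CD, the R403Q-EMPA hearts differed by both the mutation and the drug. Here 188 of 15080 genes were called (1.25%), among them 4 members. Thbs4 rose by 6.47 (SE 0.88, adjusted p = 0.0183), Comp by 3.28 (SE 0.48, adjusted p = 0.0211) and Lox by 1.08 (SE 0.20, adjusted p = 0.0416). Spp1 was called as well (adjusted p = 0.0378), with no UMI in WT-CD. Spp1 and Lox lost their calls without the mitochondrial filter (adjusted p = 0.0587 and 0.0813) and when only the 4 libraries compared were fitted (0.0618 and 0.105). All 10 members again had an unadjusted p under 0.05, beside 14.5% of all genes. Both R403Q-EMPA libraries were above both WT-CD libraries for 8 members, the exceptions being Ccn2 and Fn1, and 23.4% of all genes did the same.

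The median log2 fold change over the 10 genes was 2.98, beside 0.00 over all genes. Postn had 3.42 (SE 0.74, adjusted p = 0.0701) and Cilp 2.69 (SE 0.53, adjusted p = 0.0540), both missing the threshold. Without 1 library they ran from 1.49 to 4.20 for Postn and from 1.33 to 3.35 for Cilp. Without R403Q-EMPA replicate 1 only Thbs4 stayed called, at 4.97 (adjusted p = 0.0385), and Comp stood at 3.34 (adjusted p = 0.0894) and Lox at 1.05 (0.273) in edgeR, while Spp1 had an adjusted p of 0.130. Without 1 library at a time the fold changes ran from 2.73 to 4.23 for Comp, from 4.97 to 7.16 for Thbs4 and from 0.89 to 1.31 for Lox. Spp1 also missed the threshold without WT-CD replicate 1 (adjusted p = 0.0577) or replicate 2 (0.0847). Thbs4 missed it without WT-CD replicate 2 (0.0635), and Lox missed it without R403Q-EMPA replicate 2 (0.0586), WT-CD replicate 2 (0.0635) or R403Q-CD replicate 1 (0.0967) or 2 (0.0978). This comparison and the one before share the R403Q-EMPA libraries, so their values are not independent.

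Other measures moved with the R403Q-EMPA group. Of the barcodes past the depth filter, the share that also passed the mitochondrial filter was 78.0% and 81.1% in WT-CD, 72.8% and 67.1% in the libraries of R403Q-CD, and 65.6% and 61.0% in those of R403Q-EMPA, and its part in the results was not tested beyond the fit without that filter. In the fibroblast-like nuclei, heat shock genes, which encode chaperones, summed to 386 and 256 CPM in WT-CD, 356 and 355 CPM in R403Q-CD, and 898 and 896 CPM in R403Q-EMPA. All 10 of them were higher in both R403Q-EMPA libraries than in both R403Q-CD libraries, as were 31.1% of all genes, and 5 of 10 rose in the test, where 0.411% of all genes were called, with a list median of 1.45. Against WT-CD, 8 of 10 rose, where 1.25% of all genes were called, with a median of 1.68. Hsph1, a chaperone of the HSP110 family, had the smallest p, at 33.2, 25.7, 43.7, 37.6, 182 and 190 CPM in the order of libraries above. Unlike most of the 10 genes, this list was level between the R403Q-EMPA libraries. Its part in the levels of the matricellular genes was not tested.

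Markers of other cell types were also read in the fibroblast-like nuclei. Cardiomyocyte markers had the highest sums, 1379 and 1214 CPM in the WT-CD libraries and 1819 to 1952 CPM in the 4 R403Q libraries, with no marker at 0. Of these 10 markers, 6 were higher and 1 lower in both R403Q-CD than in both WT-CD libraries, 7 were higher and 1 lower in both R403Q-EMPA than in both WT-CD libraries, and 1 was higher and 0 lower in both R403Q-EMPA than in both R403Q-CD libraries. Over all genes tested, 15.8% were higher and 13.6% lower without overlap in the first of these comparisons, 23.4% and 18.0% in the second, and 31.1% and 21.8% in the third. Pericyte markers summed to 275 to 411 CPM, were highest in WT-CD replicate 1 and were all seen in every library. Of these 8 markers, 5 were lower and 0 higher in R403Q-CD than in WT-CD by the same measure, 4 were lower and 0 higher in R403Q-EMPA than in WT-CD, and 4 were lower and 1 higher in R403Q-EMPA than in R403Q-CD. Endocardial markers summed to 224 to 250 CPM in the 4 control-diet libraries and to 297 and 251 CPM in R403Q-EMPA, with no marker at 0. Lymphatic endothelial markers summed to 44.0 to 79.5 CPM and endothelial markers to 150 to 280 CPM, each with no marker at 0. In both R403Q-EMPA against both R403Q-CD libraries, 5 of 9 endocardial markers were higher and 2 lower. Of 8 lymphatic endothelial markers 4 were higher and 0 lower, and of 10 endothelial markers 2 and 1. Of the 10 fibroblast markers 5 were higher and 2 lower. Over all genes these shares were 31.1% and 21.8%. Myeloid markers summed to 201 to 244 CPM on control diet and 185 and 183 CPM in R403Q-EMPA, again with none at 0, but 6 of the 9 were higher and 2 lower in both R403Q-EMPA than in both R403Q-CD libraries, beside the 31.1% and 21.8% of all genes. Smooth muscle markers summed to 29.0 to 36.2 CPM except in R403Q-EMPA replicate 1, at 68.7 CPM; Lmod1 was at 0 in WT-CD replicate 2 and Cnn1 in both R403Q-EMPA libraries. Schwann markers summed to 228 to 262 CPM on control diet and to 107 and 182 CPM in R403Q-EMPA, with Sox10 at 0 in 5 of 6 libraries. Lymphoid, epicardial and adipocyte markers summed to 135 to 163, 3.39 to 10.2 and 25.9 to 39.7 CPM, each list with markers at 0 in some libraries. Their part in the results was not tested. The median depth of fibroblast-like nuclei ran from 2528 to 4564 UMIs and was lowest in R403Q-EMPA replicate 2.

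The share of fibroblast-like nuclei with a UMI of a gene was compared after thinning each nucleus to 500 UMIs, which left out no nucleus. With 2 libraries against 2, the two-sided exact permutation test cannot give a p under 0.33, so these shares are given as values. Nuclei with Postn made up 0.9503% and 0.659% in the WT-CD libraries, 0.713% and 1.32% in those of R403Q-CD, and 9.74% (95% Wilson interval 8.41 to 11.3) and 1.83% (1.31 to 2.54) in R403Q-EMPA. The interval of R403Q-EMPA replicate 2 overlapped that of R403Q-CD replicate 2 (0.900 to 1.92). Intervals cover counting error only. Without thinning, 29.3% and 4.08% of R403Q-EMPA nuclei had a UMI of Postn, against 2.09% to 4.76% in the other libraries.

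Thbs4 was seen in 2 of 3683 and 0 of 2578 thinned nuclei in WT-CD and in 0 of 2383 and 2 of 1975 in R403Q-CD. The counts of 0 allow shares of up to 0.116% and 0.126% of nuclei with a UMI at this depth, and at full depth both libraries had 4 such nuclei (0.155% and 0.168%). In R403Q-EMPA it was seen in 37 of 1663 nuclei (2.22%) and in 10 of 1863 (0.537%). Cilp-positive nuclei were 2.65% and 0.644% in R403Q-EMPA and 0.272% to 0.354% elsewhere. Ccn2-positive nuclei were 10.2% and 4.40% in R403Q-EMPA and 2.18% to 4.10% elsewhere.

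As a background for free RNA, the same shares were read in cardiomyocyte-like and endothelial-like nuclei, whose median depths were 6871 to 12045 and 2117 to 3426 UMIs. After thinning, Postn was in 0% to 0.450% of cardiomyocyte-like and 0% to 0.772% of endothelial-like nuclei. Both classes held their highest Postn level in R403Q-EMPA replicate 1, at 7.42 and 17.5 CPM, the library in which fibroblast-like nuclei held most of it. Comp, Spp1 and Tnc were in 0% of thinned cardiomyocyte-like nuclei in every library. Ccn2 was in 1.54% to 5.91% of thinned cardiomyocyte-like nuclei. This range holds the shares of fibroblast-like nuclei in all but R403Q-EMPA replicate 1. At full depth Ccn2 was in 18.5% to 39.3% of cardiomyocyte-like nuclei, so that class cannot be read as its background of free RNA. In thinned endothelial-like nuclei its share was 0.261% to 1.18%.

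At least 1 of the 10 genes was seen in 7.49% and 5.12% of thinned fibroblast-like nuclei of WT-CD hearts, 4.78% and 6.18% of those of R403Q-CD hearts, and 23.6% and 8.53% of those of R403Q-EMPA hearts. At least 2 were seen in 7.10% and 1.56% of R403Q-EMPA nuclei and in 0.272% to 0.557% of nuclei elsewhere. At least 3 were seen in 2.16% and 0.483% in R403Q-EMPA and in at most 0.0543% elsewhere. At full depth, at least 2 were seen in 33.8% and 6.12% of R403Q-EMPA nuclei and in 3.88% to 7.29% elsewhere, so replicate 2 lay within the range of the control-diet libraries there. Also at full depth, up to 9 of the 10 were seen in a single nucleus of R403Q-EMPA replicate 1.

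Some of the genes were seen more often in Postn-positive nuclei. In WT-CD replicate 1, Cilp was in 16.5% of the 109 Postn-positive fibroblast-like nuclei and in 0.839% of the Postn-negative ones, at full depth. In R403Q-EMPA replicate 1 these shares were 30.3% and 5.11%, and in replicate 2 they were 27.6% and 1.12%. Thbs4 behaved alike in replicate 2, with 18.4% and 0.448%. Lox was in 1.69% to 3.19% of Postn-positive and 2.85% to 3.72% of Postn-negative nuclei on control diet, but in R403Q-EMPA it was in 11.48% and 5.45% in replicate 1 and in 10.5% and 4.42% in replicate 2. Spp1 was in none of the Postn-positive nuclei on control diet, and in 8.40% and 6.58% of those in R403Q-EMPA, against 1.45% and 0.168% of Postn-negative nuclei. Comp was in none of the Postn-positive nuclei of WT-CD replicate 2 and R403Q-CD replicate 1. Nuclei with more UMIs have more genes of any kind, so these shares are descriptions without a test.

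The fibroblast-like nuclei lay in 3 clusters. The cluster led by Gm34567 and Gfpt2 held 35.7% to 55.8% of them and the cluster led by Grm8 and Gm4956 held 20.6% to 63.2%; the first was the larger in WT-CD replicate 1 and both R403Q-EMPA libraries, the second in WT-CD replicate 2 and both R403Q-CD libraries. The third was led by Ltbp2, which encodes a latent TGF-beta binding protein, followed by the members Cilp and Thbs4. It held 62, 33, 26, 48, 427 and 96 nuclei in the order of libraries above, so that 61.7% of its 692 nuclei came from R403Q-EMPA replicate 1. The 10 genes did not enter the clustering, but the cluster rests on the expression of the same nuclei, and the values by cluster are descriptions.

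Inside the Ltbp2-led cluster, Postn was high in every library, at 780 and 907 CPM in WT-CD, 1076 and 1139 CPM in R403Q-CD and 1228 and 780 CPM in R403Q-EMPA. Cilp was also high there in all groups, at 107 to 305 CPM. Thbs4 was not alike: it stood at 16.8 and 17.3 CPM in WT-CD, 42.4 and 83.5 CPM in R403Q-CD, and 255 and 232 CPM in R403Q-EMPA, with 4, 3, 5, 25, 576 and 78 UMIs. Without the UMIs of the nucleus that held the most, the R403Q-CD values fell to 8.47 and 23.4 CPM and those of R403Q-EMPA to 230 and 191 CPM. Spp1 had UMIs inside the cluster only in R403Q-EMPA, 156 in replicate 1 and 17 in replicate 2, whereas all 21 UMIs of R403Q-CD fibroblast-like nuclei lay outside it. Thus Postn and Cilp had like levels in this cluster in all 3 groups, and Thbs4 and Spp1 did not, though few nuclei stand behind the control-diet values.

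The cluster held 59.0% and 70.7% of the Postn UMIs of fibroblast-like nuclei in WT-CD hearts, 52.7% and 63.3% of those in R403Q-CD hearts, and 83.3% and 76.2% of those in R403Q-EMPA hearts. Of the Comp UMIs it held 41.9% and 0% in the WT-CD libraries, 0% and 35.7% in those of R403Q-CD, and 96.1% and 95.8% in those of R403Q-EMPA. Inside the cluster Comp was at 54.5 and 0 CPM, 0 and 16.7 CPM, and 54.8 and 271 CPM in the same order, so WT-CD replicate 1 and R403Q-EMPA replicate 1 were level. Outside it, Postn was at 5.94 to 21.8 CPM in the control-diet libraries and at 112 and 17.5 CPM in R403Q-EMPA, so only replicate 1 lay above the others there. Comp outside the cluster was at 0.327 to 1.65 CPM in all 6 libraries, with no separation of the groups.

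Lox had another distribution. The cluster held 0 of its UMIs in 3 of the 4 control-diet libraries and 3 in the other, and 45.7% and 6.19% of them in R403Q-EMPA. Outside the cluster Lox was at 11.2 and 7.68 CPM in WT-CD, 9.60 and 9.92 CPM in R403Q-CD, and 16.5 and 19.4 CPM in R403Q-EMPA. Both R403Q-EMPA libraries were therefore above the other 4 for Lox also in the 2 large clusters. Meox1 outside the cluster was at 5.21 to 7.27 CPM on control diet and at 14.9 and 8.32 CPM in R403Q-EMPA.

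**Figure D3:**
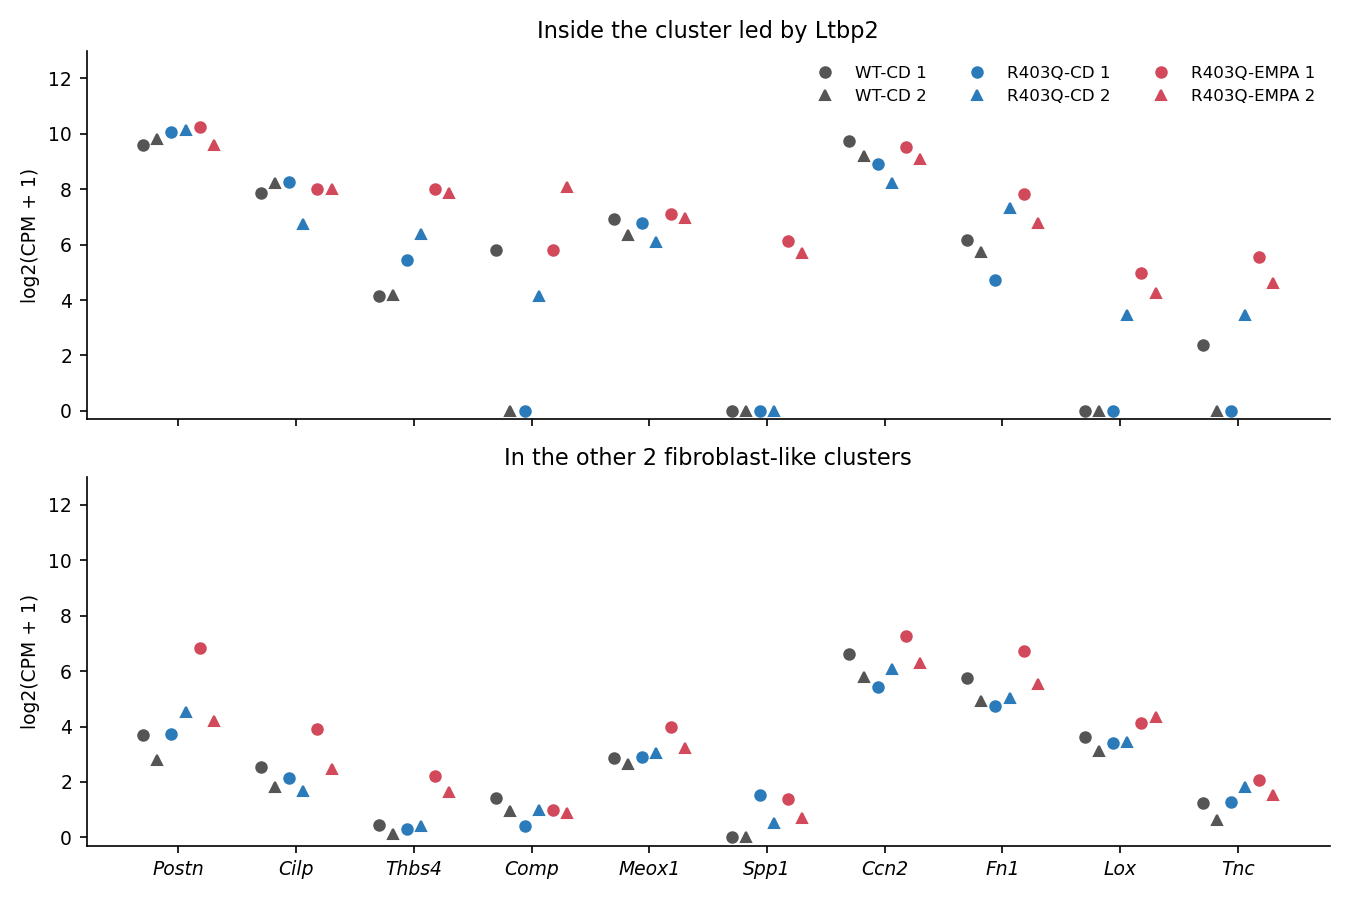
Level of each gene as log2(CPM + 1) inside the fibroblast-like cluster led by Ltbp2 (top) and in the other 2 fibroblast-like clusters (bottom); each point is 1 library. Inside, Postn is high in every library (780 to 1228 CPM) while Spp1 has UMIs only in R403Q-EMPA; outside, Lox is higher in R403Q-EMPA (16.5 and 19.4 CPM) than in the other libraries (7.68 to 11.2 CPM).

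Fibroblast-like nuclei were not the main source of every gene. Mean levels over the 6 libraries were ordered by class for each gene on its own, since CPM do not compare genes of unequal length. Cilp was the most restricted, with 80.0% to 92.3% of each library's UMIs in fibroblast-like nuclei and a mean of 23.5 CPM there, and the class came before the next in all 6 libraries. Lox was also mainly in fibroblast-like nuclei, with 62.1% to 85.8% of UMIs. Smooth muscle-like nuclei had a higher mean Lox level (18.8 against 13.0 CPM), above it in 5 of 6 libraries, from 16 UMIs in all.

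Postn was highest in pericyte-like nuclei, mural cells of capillaries, at 283 and 179 CPM in WT-CD, 193 and 216 CPM in R403Q-CD, and 271 and 170 CPM in R403Q-EMPA. These libraries overlapped between all groups, and the difference of R403Q-EMPA against R403Q-CD was 0.07 (SE 0.21) on the log2 scale. Pericyte-like nuclei stood above fibroblast-like nuclei in 5 of 6 libraries, the exception being R403Q-EMPA replicate 1. They held 45.1% to 64.3% of the Postn UMIs on control diet, 7.82% in R403Q-EMPA replicate 1 and 31.3% in replicate 2. Endocardial-like nuclei, which line the chambers, had 9.95 to 46.5 CPM on control diet and 141 and 35.03 CPM in R403Q-EMPA. Their difference of 2.06 (SE 0.64) against R403Q-CD did not pass the threshold (adjusted p = 0.217, edgeR). Whether the classes differed in their response was not tested.

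Comp was highest in lymphatic endothelial-like nuclei, at 50.1 to 81.1 CPM, and in endocardial-like nuclei, at 115 and 56.5 CPM in WT-CD, 81.6 and 44.4 CPM in R403Q-CD, and 21.2 and 64.1 CPM in R403Q-EMPA. These classes did not differ in order beyond their spread, lymphatic endothelial-like nuclei being higher in 3 of 6 libraries. Fibroblast-like nuclei held 2.11% to 8.93% of all Comp UMIs on control diet and 50.4% and 40.4% in R403Q-EMPA. Endocardial-like Comp had a log2 fold change of -0.60 (SE 0.47) in R403Q-EMPA against R403Q-CD. Over all nuclei together, Comp had 0.82 (SE 0.35) in the same comparison.

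**Figure D4:**
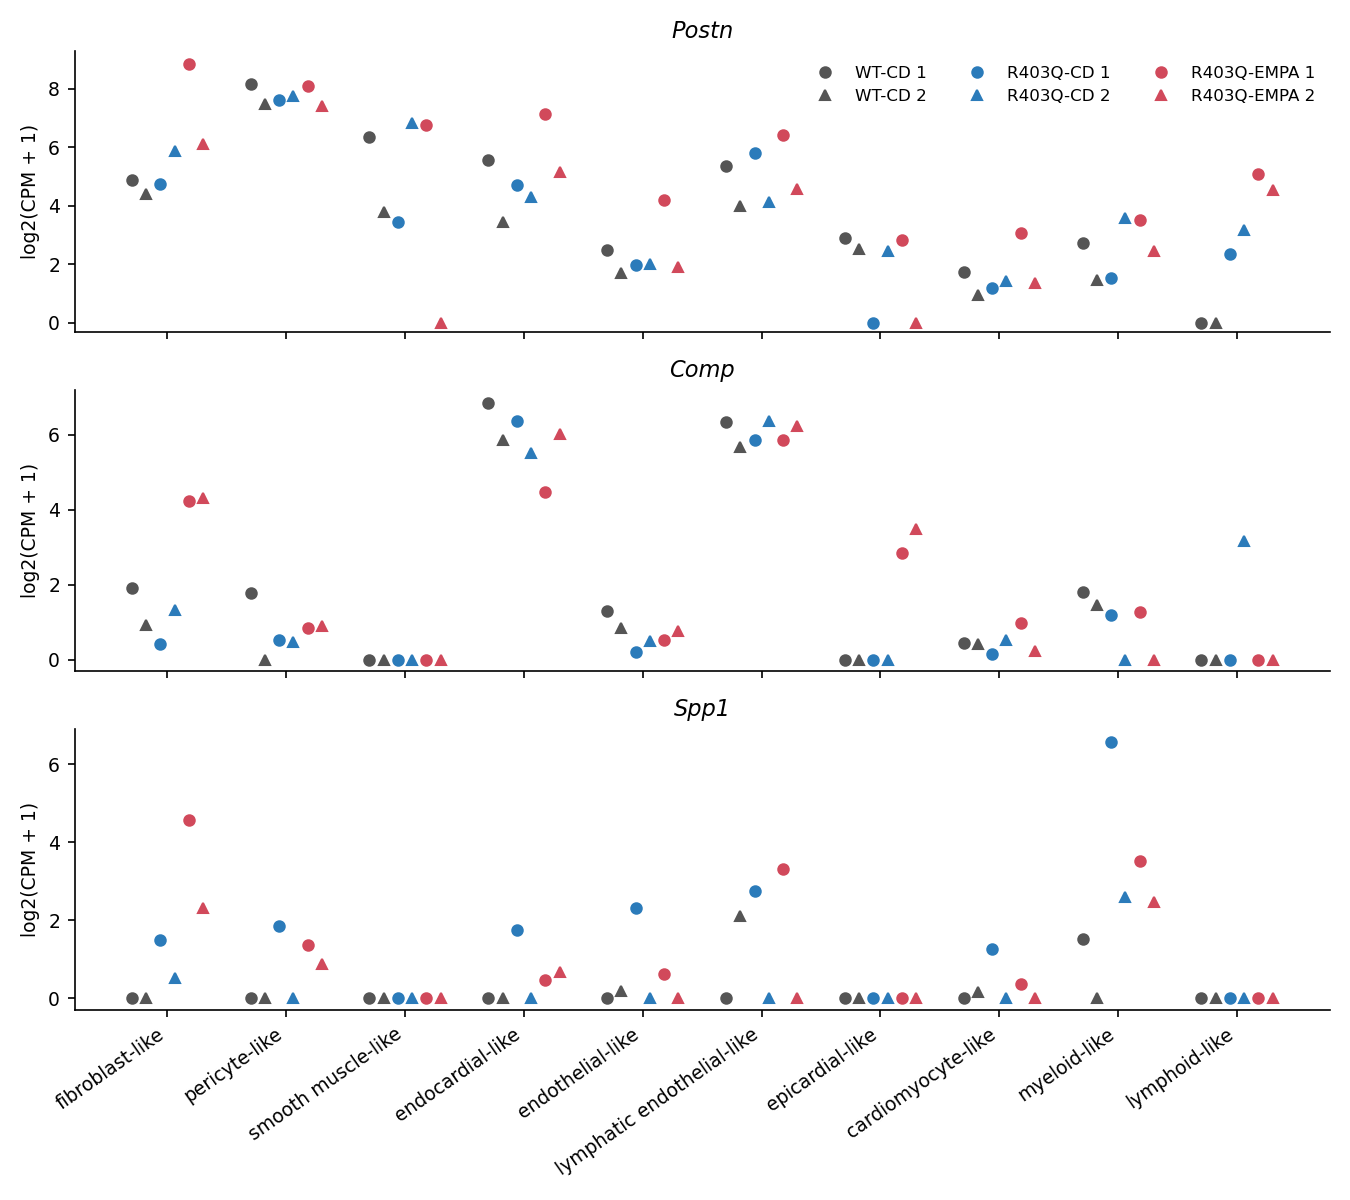
Level of Postn, Comp and Spp1 as log2(CPM + 1) by class of nuclei; each point is 1 library. Pericyte-like nuclei hold Postn at 170 to 283 CPM in all groups, endocardial-like and lymphatic endothelial-like nuclei hold Comp at 21.2 to 115 CPM, and Spp1 reaches 94.7 CPM in myeloid-like nuclei of R403Q-CD replicate 1.

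Meox1 was highest in lymphatic endothelial-like nuclei (33.4 to 45.1 CPM), above the endothelial-like nuclei (12.1 to 34.7 CPM) in all 6 libraries. Endothelial-like and fibroblast-like nuclei did not separate in order, with means of 19.0 and 16.9 CPM. Tnc was highest in lymphatic endothelial-like nuclei too, at 34.4 and 26.7 CPM in WT-CD, 43.7 and 42.6 CPM in R403Q-CD, and 54.4 and 96.5 CPM in R403Q-EMPA. Both R403Q-EMPA libraries were above the others there, with 1.18 (SE 0.34) on the log2 scale against WT-CD, which did not pass (adjusted p = 0.271, edgeR), from 16 to 49 UMIs per library. Thbs4 was seen in cardiomyocyte-like nuclei at 0.993 to 4.72 CPM without separation of the groups. They held 48.6% to 83.7% of its UMIs on control diet but 9.53% and 17.0% in R403Q-EMPA.

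Ccn2 was spread over the contractile and mural classes. Its mean level was highest in smooth muscle-like nuclei (306 CPM), then in endocardial-like (198 CPM), pericyte-like (139 CPM) and fibroblast-like nuclei (124 CPM), each above the next in 5 of 6 libraries. In cardiomyocyte-like nuclei it stood at 84.4 and 54.8 CPM in WT-CD, 36.0 and 70.7 CPM in R403Q-CD, and 166 and 78.4 CPM in R403Q-EMPA. The log2 fold change against R403Q-CD was 1.13 (SE 0.35, adjusted p = 0.220, edgeR), again with replicate 1 of R403Q-EMPA as the high library.

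Fn1 was highest in pericyte-like (130 to 205 CPM) and endocardial-like nuclei (77.8 to 227 CPM). In endothelial-like nuclei R403Q-EMPA replicate 1 had 100 CPM and the other libraries 32.9 to 50.3 CPM. Of the members tested in the classes other than fibroblast-like, only Fn1 in epicardial-like nuclei was called, in R403Q-EMPA against WT-CD (adjusted p = 0.0387, edgeR), where 12 of 4613 genes were called (0.26%). It had 1 and 0 UMIs in the WT-CD libraries, 3 and 5 in those of R403Q-CD, and 9 and 18 in those of R403Q-EMPA, from 27 to 71 nuclei per library. The pooled ratio was 53.6 with an exact 95% interval of 8.84 to 2196 that covers counting error only, and single libraries were not left out for this class.

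Spp1 in myeloid-like nuclei, which include macrophages, was at 1.88 and 0 CPM in WT-CD, 94.7 and 5.09 CPM in R403Q-CD, and 10.4 and 4.55 CPM in R403Q-EMPA. In R403Q-CD replicate 1 its 148 UMIs lay in 10 of 445 nuclei, with 50 in 1 nucleus. Fn1 was also high there, with 209 UMIs in 10 nuclei, and 4 nuclei with both genes held 142 of the Spp1 and 180 of the Fn1 UMIs. In that library Spp1 was in 0.671% of fibroblast-like, 1.43% of cardiomyocyte-like and 0.734% of endothelial-like nuclei at full depth. Thinned to 1000 UMIs, these shares were 0.379% (9 nuclei), 0% (of 959 nuclei) and 0.307% (7 nuclei), so the fibroblast-like and endothelial-like shares were close at both depths. The part of free RNA in the fibroblast-like UMIs of this library was not tested. In R403Q-EMPA replicate 1 the full-depth shares were 3.49%, 0.257% and 0.176% in the same order, and in replicate 2 they were 0.429%, 0% and 0%.

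**Figure D5:**
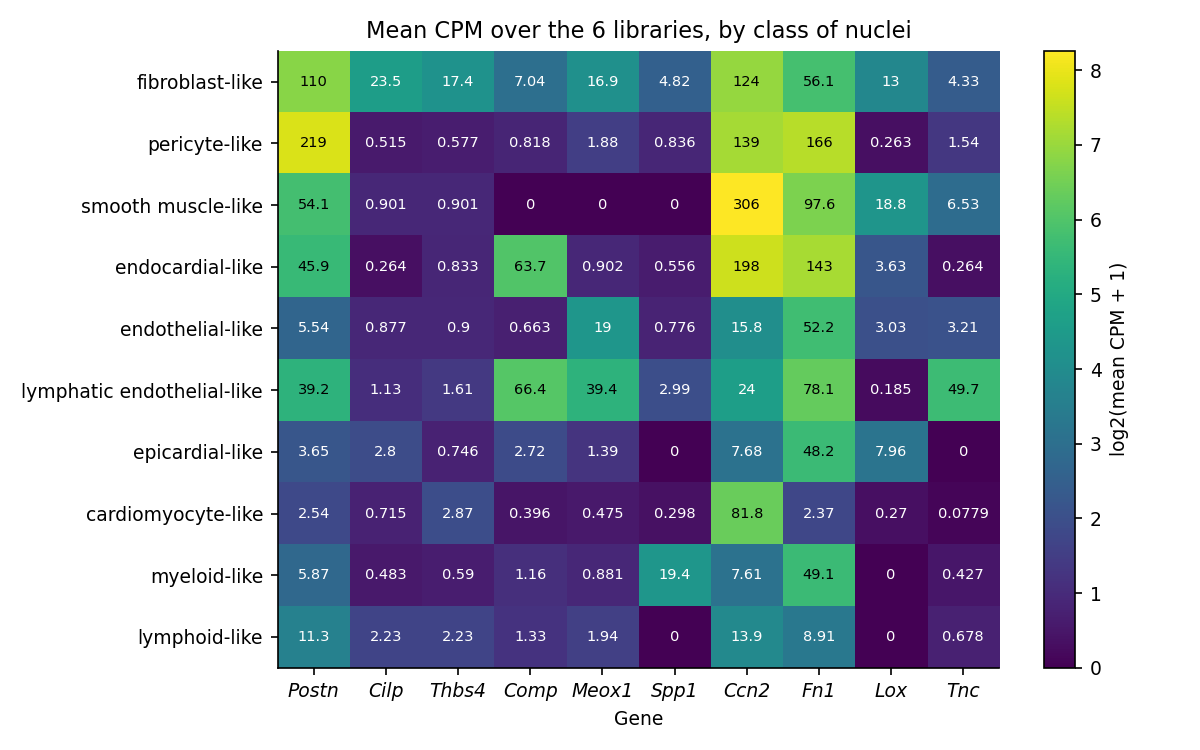
Mean CPM over the 6 libraries of each gene (columns) in each class of nuclei (rows), with colour as log2(mean CPM + 1) and the mean CPM written in each cell. Cilp is restricted to fibroblast-like nuclei (23.5 CPM), while Postn is highest in pericyte-like nuclei (219 CPM) and Comp in lymphatic endothelial-like (66.4 CPM) and endocardial-like nuclei (63.7 CPM).

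When all nuclei of a library were summed without classes, 19024 genes were tested. R403Q-CD against WT-CD had 0 calls (0%, with 863 genes at an unadjusted p under 0.05), R403Q-EMPA against R403Q-CD had 14 (0.0736%) and R403Q-EMPA against WT-CD had 875 (4.6%). The only member called was Thbs4, in R403Q-EMPA against WT-CD, at 3.30 (SE 0.71, adjusted p = 0.0457, edgeR). Cilp stood at 2.61 (SE 0.52) against R403Q-CD. Spp1 was at -0.08 (SE 1.08) in that comparison, since its UMIs in R403Q-CD lay mostly in myeloid-like nuclei of replicate 1.

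The surroundings of the 10 genes were read in lists of genes chosen by role within fibroblast-like nuclei. Of 20 tested matricellular relatives, 0 passed in any comparison, and their median against R403Q-CD was 0.37 with 7 at an unadjusted p under 0.05, as were 13.4% of all genes. In R403Q-CD against WT-CD 4 of the 20 were positive and 4 had an unadjusted p under 0.05, where 3.06% of all genes did, with a median of -0.43, and in R403Q-EMPA against WT-CD the median was 0.015. The smallest p-values belonged to Fbln2 (0.59, SE 0.14) and Fbln1 (0.58, SE 0.15), which encode fibulins, and to Thbs1 (1.06, SE 0.28), which encodes thrombospondin-1. Thbs1 was at 81.7 and 38.8 CPM in R403Q-EMPA and at 23.8 to 30.1 CPM elsewhere. Against WT-CD the smallest p was that of Smoc2, which was lower in R403Q-EMPA (-0.90, SE 0.19, adjusted p = 0.0662).

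All 18 tested genes of matrix fibre assembly and crosslinking had a positive log2 fold change against R403Q-CD, with a median of 0.58, 11 at an unadjusted p under 0.05 and 0 passing. Over all genes tested in this comparison, 50.2% were positive, 13.4% had an unadjusted p under 0.05 and the median was 0.0014. The smallest p-values belonged to Loxl1, a lysyl oxidase relative (0.71, SE 0.15), Mfap5, a microfibril protein (1.19, SE 0.27), and Aspn, which encodes asporin (0.69, SE 0.16). Loxl1 was level in the R403Q-EMPA libraries like Lox, at 188 and 203 CPM against 108 to 143 CPM in the others. In R403Q-CD against WT-CD, 3 of the 18 genes were positive, with a median of -0.18, where 48.2% of all genes were. In R403Q-EMPA against WT-CD, 16 were positive, with a median of 0.38, where 49.4% of all genes were. Of the 18, 7 had an unadjusted p under 0.05 there, beside 14.5% of all genes.

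Of 15 receptors of matricellular proteins, 0 passed, and 7 had an unadjusted p under 0.05 against R403Q-CD, as did 13.4% of all genes. Sdc4, which encodes the fibronectin co-receptor syndecan-4, came nearest against R403Q-CD (1.16, SE 0.20, adjusted p = 0.0502), and Itga8, an integrin subunit, was lower (-0.76, SE 0.18). Of 17 tested upstream regulators 0 passed, with a median of 0.15 and 4 at an unadjusted p under 0.05 against R403Q-CD. Tgfb1, the ligand, stood at 61.9 and 40.4 CPM in R403Q-EMPA and 25.0 to 32.6 CPM elsewhere (0.79, SE 0.21). Skil, a TGF-beta feedback gene, had 0.58 (SE 0.13). Of 14 tested myofibroblast and activation genes, 1 passed against WT-CD, where 1.25% of all genes did. This was Col12a1, a collagen bound to fibrils, which rose by 2.13 (SE 0.38, adjusted p = 0.0400, edgeR). Against R403Q-CD 0 of the 14 passed, where 0.411% of all genes did, and the list median was 0.73. Of the 14, 12 had a positive log2 fold change and 9 an unadjusted p under 0.05, beside 50.2% and 13.4% of all genes. Against WT-CD 11 were positive and 6 had an unadjusted p under 0.05, beside 49.4% and 14.5%, with a median of 0.57. Fap, the fibroblast activation protein, went the other way and was lower in both R403Q-EMPA libraries, at 243 and 287 CPM against 361 to 415 CPM, and did not pass.

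Of 12 resting fibroblast genes, 0 passed in any comparison, and the median against R403Q-CD was 0.09. Pi16, a marker of adventitial fibroblasts, was higher (0.74, SE 0.18) and Abca8a lower (-0.81, SE 0.22), at 2394 and 2926 CPM in R403Q-EMPA and 4278 to 5178 CPM elsewhere. In R403Q-CD against WT-CD, no gene of any list passed, and list medians lay between -0.43 and 0.14.

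The genes most alike in pattern were sought over 61 sums of library and class, from 11 classes, by Pearson's r of log2(CPM + 1), as a description. These points share libraries and depth. For Postn they included A830082K12Rik (0.73), Nr2f1 (0.71), Septin7 (0.71) and Armcx1 (0.70). For Comp they were Gm17171 (0.86), Gm50136 (0.84), Lbp (0.83), H19 (0.82) and Tnfaip8l3 (0.82). For Ccn2 they included Gm28523 (0.81), Sobp (0.80), Astn2 (0.78) and Pdlim3 (0.76), and for Spp1 they were Hp (0.63), Igf1os (0.58), Gm15635 (0.58), Gm12089 (0.58) and Batf3 (0.58). None of these genes was a member.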

How the data were processed

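Single-nucleus counts of the left ventricle were analysed in 6 libraries (3 groups, n = 2). The authors deposited, per library, unnormalised UMI counts per gene and barcode, made with Cell Ranger 8.0.1 per the file headers; the submitters' processing notes name GRCm39. Groups came from the labels, and replicate numbers follow accession order and pair nothing. The 10 members and all lists were chosen with earlier results of these data known. Barcodes with at least 500 UMIs, 300 genes and at most 5% mitochondrial UMIs were kept, and scrublet's predicted doublets (3.68% to 6.45%) were removed. Nuclei were clustered without the 10 members in scanpy 1.11.5 (Python 3.11.15; 30 components, 2000 variable genes, 15 neighbours, Leiden resolution 1). A class needed at least 3 fixed markers enriched 2-fold and seen in 10% of a cluster's nuclei; the most markers decided. A cluster of 32 nuclei stayed unnamed, and the 59 Schwann-like nuclei were too few to test (minimum 20 per library). Counts of a class were added up within each library, filtered with filterByExpr and TMM scaled. They were fitted over all 6 libraries with the quasi-likelihood test of edgeR 4.0.16 (R 4.3.3, 3 residual degrees of freedom), adjusted by Benjamini-Hochberg over all genes. Each SE was derived from that test, as the absolute log2 fold change over the square root of its F statistic. On simulated fibroblast-like counts for R403Q-EMPA against R403Q-CD (15080 genes), 53.0% of genes changed by 1 on the log2 scale and 82.0% of those changed by 2 were recovered, and 9.40% of calls were false. Alternatives were DESeq2 1.42.0, no low-count filter, fits of 4 libraries, each library left out, no mitochondrial filter, doublets kept, members among the clustering genes, and all nuclei pooled. The members were named whatever their result; of each list the called genes, or the 3 with the smallest p, could be named. Some genes among those most alike in pattern to Postn and Ccn2 are not reported here.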

Additional observations from a re-analysis of the deposited data

Results flagged for a closer look

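Lox levels differed in opposite directions between classes of nuclei, and this difference was not tested, nor was Lox in endocardial-like nuclei. In R403Q-EMPA against R403Q-CD, both R403Q-EMPA libraries were above both others in fibroblast-like nuclei (mean difference 10.4 CPM) and in endothelial-like nuclei (3.43 CPM), and both were below in endocardial-like nuclei (-1.61 CPM). Against WT-CD the differences were 10.9 CPM in fibroblast-like and -2.80 CPM in endocardial-like nuclei. The endocardial-like values rest on 2 to 12 UMIs of Lox per library, and those of R403Q-EMPA on 8 and 2 UMIs. Thinned to 1000 UMIs, the endocardial-like share with Lox was 0.303% and 0% in R403Q-EMPA and 0.302% and 0.189% in R403Q-CD, which overlap. Lox did not pass the threshold in R403Q-EMPA against R403Q-CD in the classes where it was tested.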

How the results depend on the processing

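No paired analysis was possible because the labels give no replicate numbers that pair libraries across groups. In fibroblast-like nuclei, R403Q-CD against WT-CD called 9 genes with DESeq2 and 3 members among 101 genes with no filter on low counts, and 0 and 0 without any 1 library. R403Q-EMPA against R403Q-CD called 5 members among 248 genes with DESeq2, 10 among 1020 without the filter, 3 among 278 when only these 4 libraries were fitted, 1 among 23 without the mitochondrial filter, 1 among 36 with doublets kept, 0 among 14 over all nuclei, and 0 to 9 among 0 to 302 without 1 library. R403Q-EMPA against WT-CD called 8 among 406, 10 among 1128, 2 among 49, 2 among 93 without the mitochondrial filter, 1 among 875 over all nuclei, and 1 to 9 among 18 to 575 without 1 library. The share of nuclei with any member differed by -0.827, 10.6 and 9.78 percentage points in the order of these comparisons, by 0.626, 18.7 and 19.3 without thinning, and by -2.01 to 0.360, 3.05 to 18.2 and 2.23 to 17.3 without 1 library. The causes were not tested.

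The direction of the member fold changes turned in 1 of 130 alternatives for R403Q-EMPA against R403Q-CD (Spp1 over all nuclei, at -0.081) and in 0 of 130 against WT-CD, while a call was gained in 21 and 16 of them and lost in 10 and 17. For R403Q-CD against WT-CD the direction turned for Fn1 without WT-CD replicate 1 (0.00080, range -0.74 to 0.00080 without 1 library), for Lox without WT-CD replicate 2 (range -0.11 to 0.31), without the mitochondrial filter (-0.047) and over all nuclei (-0.22), and for Postn over all nuclei (-0.10). Thinned shares in that comparison turned, in percentage points, for Postn without R403Q-CD replicate 2 (range -0.0915 to 0.512), Cilp at 1000 UMIs (-0.0430), Thbs4 without R403Q-CD replicate 2 (-0.0272) or WT-CD replicate 2 (-0.00367, range -0.0272 to 0.0741), Meox1 at 1000 UMIs (0.0545), unthinned (1.02), and without R403Q-CD replicate 1 (0.00900) or WT-CD replicate 1 (0.123, range -0.157 to 0.123), and Lox without R403Q-CD replicate 1 (-0.0162) or WT-CD replicate 2 (-0.0665, range -0.0665 to 0.108). Depth limits Spp1, Tnc, Comp and Thbs4 most, with 0 to 31 UMIs in each control-diet library.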
